A study of Mus musculus with 42 samples.

Results

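In the ES_EPZ regimen, mouse embryonic stem cells (mESCs) were exposed to the EZH2 inhibitor EPZ6438 before differentiation and then taken through 6 days of anterior definitive endoderm (ADE) differentiation without it. Its members are the 3 arrays whose titles name this regimen, out of 42 arrays in 14 groups, and they were compared with 3 Control arrays. EPZ6438 was used at 2.5 µM before differentiation and DMSO, its solvent, during it. Control cultures had DMSO in both phases. A further regimen, ADE_EPZ, had DMSO before and 2.5 µM EPZ6438 during differentiation, and its 3 arrays are given beside those of ES_EPZ. All of these cells came from 1 dual reporter mESC line that carries GFP at Gsc and RedStar at Hhex, and all 9 cultures were collected at d6. The labels of these cultures name no sort, whereas d6 G+H- and G+H+ cells of the untreated series were isolated by reporter fluorescence. The replicates of a regimen came from separate experiments, and with 3 arrays against 3 an exact permutation test of single values cannot give a p below 0.1, so the tests below come from 1 limma fit across all probes and all 42 arrays.

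EZH2 is the main catalytic subunit of polycomb repressive complex 2 (PRC2), which methylates histone H3 at lysine 27. The trimethylated mark, H3K27me3, lies over many silent developmental genes in mESCs, and the complex is drawn to CpG-rich promoters. EPZ6438 blocks the enzyme without removing the protein, so that the mark is lost over cell divisions and can be rebuilt after the drug is withdrawn. The question asked of these arrays was which transcripts differed at d6 when the inhibitor had been present in mESCs and not afterwards. No ES_EPZ array was of an earlier day, so differences that lasted from mESCs and those that arose later cannot be told apart.

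At d6, 82 genes were higher and 15 were lower in ES_EPZ than in Control, 0.369% and 0.0676% of the 22201 genes tested. Dio3, an enzyme that inactivates thyroid hormone, had the largest increase and was higher by 4.00 on the log2 scale with a standard error of 0.47 (limma adjusted p = 2.09e-05). Bok, of the Bcl2 family, and the plakin Eppk1 followed it. Mixl1, a homeobox factor of the primitive streak, was among those that fell. Calls required at least 1 probe of a gene to reach a limma adjusted p of 0.01 or less together with a log2 difference of 1.5 or more in either direction, and a gene is a RefSeq accession carried by the array annotation. Of the 82 higher genes 17 had several probes, and all probes were called for 4 of them. Of the 15 lower genes 6 had several probes, and all probes were called for 0. All values are normalised intensities or their differences on the log2 scale, in which 1 unit is a doubling. Since the cultures are bulk samples, a larger share of cells that express a gene and more RNA per cell cannot be told apart.

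The counts depended on single arrays and on how the spread was estimated. Without ES_EPZ replicate 3 only 12 genes were called higher and 2 lower, without Control replicate 3 the numbers were 14 and 7, and without ES_EPZ replicate 2 they were 182 and 40. They were 33 and 7 without ES_EPZ replicate 1, and 39 and 6 without Control replicate 1. A fit to the 9 arrays of the inhibitor series alone called 16 genes higher and 2 lower. A fit to the 6 arrays of both regimens called 0 in either direction by limma, although 4676 genes (21.1%) had an unadjusted p under 0.05 in it, as against 4503 (20.3%) in the fit to all arrays. Each of the 82 genes was higher in all 9 pairs of an ES_EPZ and a Control array, which largely follows from the thresholds, since these arrays chose the genes, and 13.8% of all genes met that condition.

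**Figure D1:**
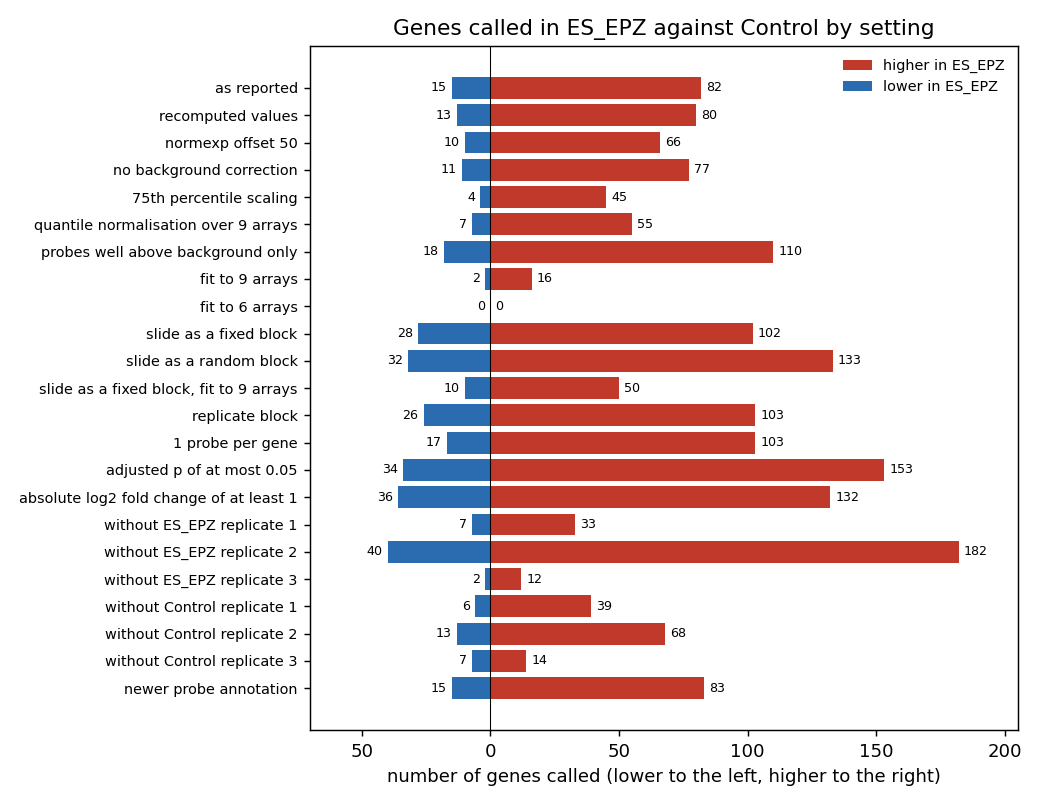
Number of genes called higher (bars to the right) and lower (bars to the left) in ES_EPZ than in Control for the reported fit and each other setting, with the count printed at the end of each bar. The count of higher genes ran from 0 in the fit to 6 arrays to 182 without ES_EPZ replicate 2.

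The 3 ES_EPZ arrays did not respond to the same extent. Over the 82 higher genes, the median intensity was 9.83 and 10.49 in ES_EPZ replicates 1 and 3, 9.0 in replicate 2 and 7.62, 7.70 and 7.38 in the Control replicates. Replicate 2 was the lowest ES_EPZ array for 76 of the 82 genes, and replicate 3 the highest for 65. Each slide held 1 array of every regimen, and the median within-slide difference of these genes was 2.14, 2.24 and 1.37, the last on the slide that held ES_EPZ replicate 2 and Control replicate 1. For the 15 lower genes the within-slide medians were -2.02, -1.83 and -1.38. ES_EPZ replicate 2 had 34788 probes well above background and Control replicate 1 had 24446, the highest and lowest numbers of the 9 arrays, and the part of this in the result was not tested.

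**Figure D2:**
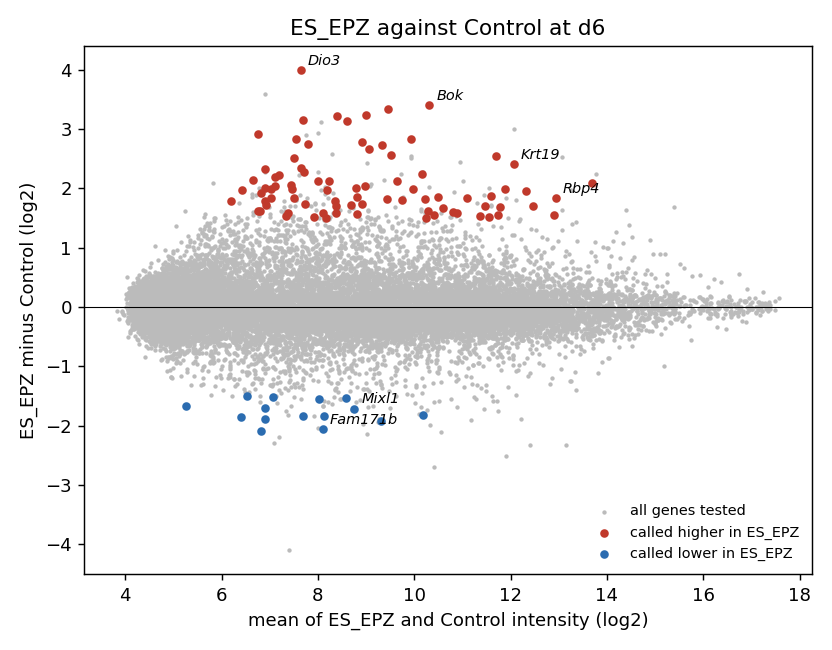
Difference between ES_EPZ and Control (log2, y axis) against the mean intensity of both groups (log2, x axis) for each gene tested, as grey points, with called genes in colour. Called genes lie at low to high but not at the highest intensities, and the grey point at -4.10 is Hormad1, which rests on 1 Control array.

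Dio3 had intensities of 9.81, 8.74 and 10.37 in the ES_EPZ replicates and 5.36, 6.11 and 5.45 in the Control replicates. No ES_EPZ array came near a Control array, and the within-slide differences were 4.26, 4.36 and 3.38. Only 2 of the 3 Control arrays were above background. Dio3 passed the thresholds in 18 of 19 other settings, all but the fit to 6 arrays.

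Bok, a member of the Bcl2 family that promotes apoptosis, was measured at 12.33, 10.59 and 13.12 in ES_EPZ and 9.06, 8.69 and 8.06 in Control. The groups did not overlap, as the choice of genes required, but the difference within a slide was 1.52 in 1 case and 4.42 and 4.28 in the others. The fitted change was 3.41 with a standard error of 0.49 (limma adjusted p = 0.000165). Bok was the only one of 18 measured Bcl2 family genes to be called (5.56%, against 0.385% of all symbols called higher). The median change of the family was 0.26, as against -0.01 over all 21308 gene symbols. Gene lists here and below were chosen with earlier results of these data known, so their shares are descriptions only.

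Eppk1, which encodes the plakin epiplakin of epithelial cells, rose by 3.34 with a standard error of 0.63 (limma adjusted p = 0.00399). Its intensities were 11.28, 10.34 and 11.76 in ES_EPZ and 8.42, 7.45 and 7.49 in Control. Alx1, a homeobox factor of craniofacial mesenchyme, rose by 3.24 (standard error 0.58, limma adjusted p = 0.00231), from 7.33, 8.13 and 6.64 to 10.49, 9.72 and 11.62. Eppk1 passed the thresholds in 11 of 19 other settings and Alx1 in 12, and leaving out ES_EPZ replicate 1 or 3 or Control replicate 3 ended the call of each, as did leaving out Control replicate 2 for Eppk1 and Control replicate 1 for Alx1.

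Thbs4, an extracellular matrix glycoprotein, was at 9.85, 8.87 and 11.32 in ES_EPZ and at 6.56, 7.38 and 6.41 in Control, a change of 3.23 with a standard error of 0.54. Tent5c, a poly(A) polymerase, was more variable. Its ES_EPZ arrays read 9.17, 7.50 and 11.16, against 5.86, 6.15 and 6.34 in Control, and it passed the thresholds in only 7 of 19 other settings. Sst, the peptide hormone somatostatin, behaved in a similar way, with 8.47, 6.26 and 9.88 in ES_EPZ, 5.30, 5.36 and 5.22 in Control, where 1 array was above background, and 8 of 19 settings passed.

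Crybg1, Krt90, Proc, Rax and Scel complete the 12 genes with the largest increase. Krt90, a keratin, rose by 2.84 with a standard error of 0.42 and was at 9.03, 8.23 and 9.61 in ES_EPZ against 6.05, 6.41 and 5.89 in Control. It passed the thresholds in 17 of 19 other settings. Rax, a homeobox factor of the anterior neural plate and eye field, rose by 2.79 (standard error 0.45). Its Control arrays differed, at 6.93, 8.72 and 6.91, while ES_EPZ was at 10.00, 9.90 and 11.03. Crybg1 rose by 3.13, Proc, the precursor of the anticoagulant protein C, by 2.83, and Scel, a precursor of the cornified envelope of epithelia, by 2.75. None of them overlapped with Control, but the 12 genes were chosen with that as a condition. It was met by 13.8% of all genes.

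**Figure D3:**
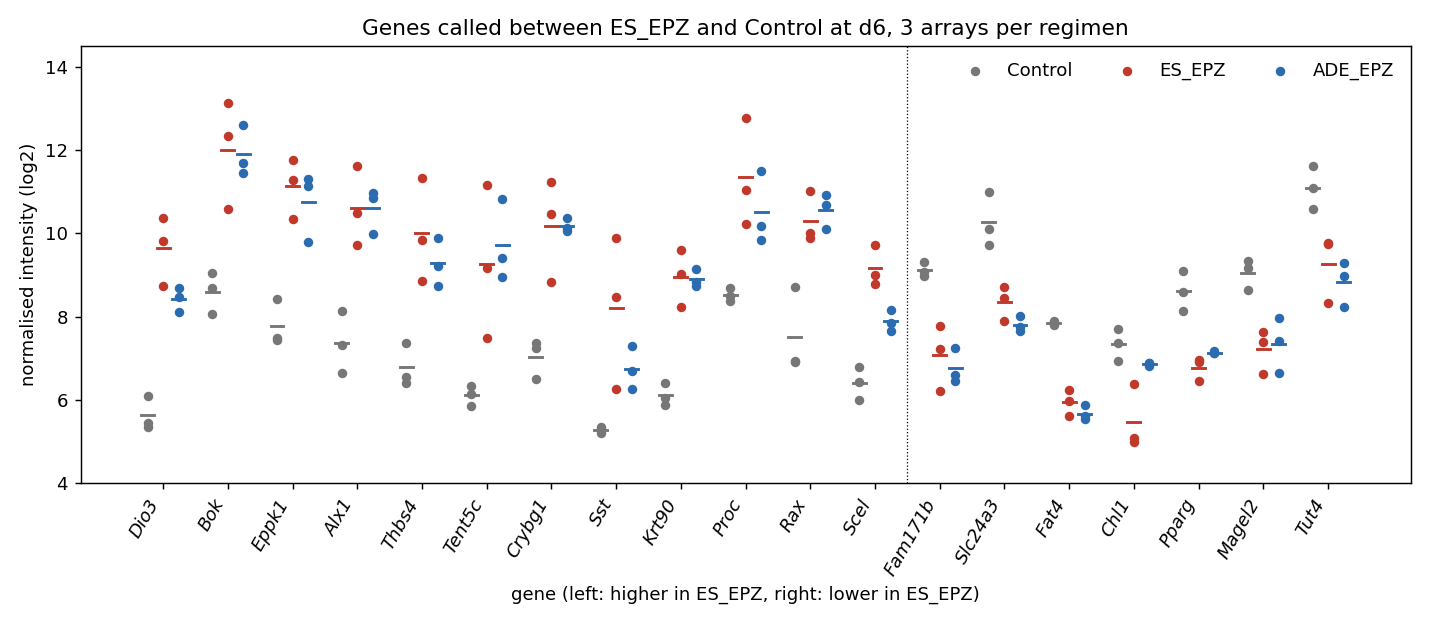
Normalised intensity (log2, y axis) on each array of Control (grey), ES_EPZ (red) and ADE_EPZ (blue) for the 12 genes with the largest increase and 7 of those with the largest decrease in ES_EPZ, left and right of the dotted line. Points are arrays and bars are means of 3. No ES_EPZ point overlaps with a Control point of the same gene, which was a condition for choosing these genes.

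Promoter sequence was examined because PRC2 is known for its preference for CpG-rich DNA. Windows from 250 bases before to 50 bases after the start were held in a RefSeq table of build GRCm38.p6 for 67 of the 82 higher genes, 11 of the 15 lower genes and 16601 of all genes on the array. A window was called CpG-rich with a GC share of at least 50% and an observed over expected CpG of at least 0.6. This was met by 28 of the higher genes (41.8%), 4 of the lower genes (36.4%) and 48.1% of all genes, and the median observed over expected CpG was 0.53, 0.52 and 0.61. At this cut-off the share of the higher genes was near that of all genes, and no test was made. All genes with a window were counted, whether or not they were above background. Where a gene had several windows, the first listed was used. Both kinds occurred among the largest increases, as the following windows show. They are those of the 2 genes with the largest increase and, of the 12 largest, those with the most and the fewest CpG among the genes that had a window, which Eppk1, Alx1, Proc and Rax did not, printed 5′ to 3′ on the coding strand with each CpG in capitals.
Dio3 promoter: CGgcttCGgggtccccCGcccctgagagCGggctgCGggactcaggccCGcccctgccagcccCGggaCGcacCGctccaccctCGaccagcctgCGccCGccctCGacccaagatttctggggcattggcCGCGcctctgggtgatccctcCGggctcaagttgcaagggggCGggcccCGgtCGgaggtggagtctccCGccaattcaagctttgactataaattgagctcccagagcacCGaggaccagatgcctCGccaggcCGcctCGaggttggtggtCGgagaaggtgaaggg
Bok promoter: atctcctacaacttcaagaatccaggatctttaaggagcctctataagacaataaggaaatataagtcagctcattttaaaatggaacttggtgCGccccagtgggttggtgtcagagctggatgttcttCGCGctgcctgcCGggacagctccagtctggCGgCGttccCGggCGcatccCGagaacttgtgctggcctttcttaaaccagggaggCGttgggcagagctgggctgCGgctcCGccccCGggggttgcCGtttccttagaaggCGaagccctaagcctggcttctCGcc
Tent5c promoter: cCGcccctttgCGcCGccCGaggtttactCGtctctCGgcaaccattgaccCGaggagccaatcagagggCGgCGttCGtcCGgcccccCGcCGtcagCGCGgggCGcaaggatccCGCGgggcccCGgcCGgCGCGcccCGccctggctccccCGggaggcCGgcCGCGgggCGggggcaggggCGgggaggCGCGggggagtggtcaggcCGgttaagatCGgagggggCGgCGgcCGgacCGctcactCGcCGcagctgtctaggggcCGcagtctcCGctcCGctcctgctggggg
Krt90 promoter: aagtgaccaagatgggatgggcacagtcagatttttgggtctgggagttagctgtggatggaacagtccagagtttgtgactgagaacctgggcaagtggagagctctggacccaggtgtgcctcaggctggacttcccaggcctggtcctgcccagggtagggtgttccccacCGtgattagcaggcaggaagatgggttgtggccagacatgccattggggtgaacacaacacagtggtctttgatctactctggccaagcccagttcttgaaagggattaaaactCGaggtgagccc
The Dio3 window lies at chr12:110278980-110279279 on the plus strand and holds 25 CpG. That of Bok, at chr1:93685325-93685624 on the plus strand, holds 16. The Tent5c window, at chr3:100489143-100489442 on the minus strand, holds 42 CpG with a GC share of 78%. The Krt90 window, at chr15:101562901-101563200 on the minus strand, holds only 2 CpG with a GC share of 55%. Dio3 and Krt90, with 25 and 2 CpG, were the genes of these 4 that passed in the most other settings.

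Of 24 genes of cell junctions, keratins and plakins, Eppk1, Krt19 and Cldn4 were called higher (12.5%, against 0.385% of all symbols) and 0 lower, and the median change of the list was 0.82. This list was chosen with earlier results of these data known, so the share describes it and was not tested. Krt19, a simple epithelial keratin, was at 13.37, 12.75 and 13.69 in ES_EPZ and 11.13, 11.01 and 10.45 in Control, a change of 2.41 with a standard error of 0.49 (limma adjusted p = 0.00679). Cldn4, a tight junction claudin, rose by 1.98 with a standard error of 0.41 (limma adjusted p = 0.00822), and passed in 8 of 19 other settings. Only 1 of its 2 probes was called, and the call was lost with 1 probe per gene. Its ES_EPZ arrays read 9.19, 7.06 and 9.14 and its Control arrays 6.86, 6.38 and 6.19, so that the difference within 1 slide was 0.20. Krt7, another simple epithelial keratin of the list, was higher by 2.08 without passing (standard error 0.63, limma adjusted p = 0.0822). The keratins Krt42 and Krt79, the junctional protein Lad1 and the protease inhibitor Spint1 also rose, by 2.24, 1.58, 1.74 and 1.68. Apart from Krt42, these and the genes of the next 2 paragraphs that belong to no list were picked out after their values were seen.

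Myl9, a regulatory myosin light chain of smooth muscle and non-muscle cells, was at 13.26, 12.21 and 13.44 in ES_EPZ and at 10.68, 10.28 and 10.32 in Control, a change of 2.54 with a standard error of 0.40. Myl3, a myosin light chain of heart and slow muscle, rose by 2.74, Cnn1, the smooth muscle calponin, by 2.56 and Tnnt1, the slow skeletal troponin T, by 2.09. Myh14, a non-muscle myosin, and Palld, an actin crosslinker, rose by 1.83 and 1.87. The cardiac actin Actc1 was 2.90 higher but did not pass (standard error 0.69, limma adjusted p = 0.022), and 0 of 21 listed cardiac and lateral mesoderm genes were called, with a median change of -0.15.

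Of 27 gut tube, liver and pancreas genes, Sst and Tbx1 were called higher (7.41%, against 0.385% of all symbols) and 0 lower, with a median change of 0.14. Tbx1, a T-box factor of the pharynx, rose by 2.12 with a standard error of 0.41 (limma adjusted p = 0.0048), from 7.30, 7.84 and 6.38 to 9.32, 9.04 and 9.52. Gip, an incretin hormone, had even replicates, with 8.24, 7.73 and 8.11 in ES_EPZ and 5.99, 6.51 and 5.60 in Control, and rose by 1.99 (standard error 0.26, limma adjusted p = 4.49e-05). Chga, a granule protein of endocrine cells, rose by 1.96, Nppb, a natriuretic peptide, by 1.97 and Insm1, a zinc finger factor of endocrine progenitors, by 2.04. For Nppb 1 of 3 Control arrays was above background. Rbp4, the plasma carrier of retinol, and Rarb, a retinoic acid receptor, rose by 1.84 and 1.81, and Hesx1, a homeobox repressor of the anterior embryo, by 2.13. The secreted proteins Angpt2 and Timp3, a ligand of the Tie2 receptor and an inhibitor of metalloproteinases, rose by 2.35 and 1.98.

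Imprinted genes, which are transcribed from 1 parental allele, changed both ways. Of 58 measured, Dio3 and Grb10 rose (3.45%, against 0.385% of all symbols) and Magel2 fell (1.72%, against 0.0704%). The median change was -0.13. Grb10, an adaptor that limits growth factor signalling, was at 13.28, 12.75 and 13.91 in ES_EPZ and at 11.76, 11.79 and 11.26 in Control, a change of 1.71 with a standard error of 0.30 (limma adjusted p = 0.00169). Magel2, a ubiquitin ligase regulator, was at 7.40, 7.63 and 6.63 against 9.33, 8.65 and 9.18, and fell by 1.83 (standard error 0.36, limma adjusted p = 0.0053). The imprinted Ddc was higher by 1.85 and missed the threshold (limma adjusted p = 0.0109).

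Among the genes that fell, Fam171b, a membrane protein, was at 7.22, 7.79 and 6.21 in ES_EPZ and at 8.99, 9.08 and 9.32 in Control, a decrease of 2.06 with a standard error of 0.40. Slc24a3, a sodium, potassium and calcium exchanger, fell by 1.92 and Tut4, a uridylyltransferase that acts on RNA, by 1.83. Of the 2 probes of Tut4 only 1 was called. Fat4, a giant protocadherin of planar cell polarity, had very close Control values of 7.91, 7.84 and 7.81 and read 5.99, 6.25 and 5.62 in ES_EPZ. Pparg, the nuclear receptor of adipogenesis, fell by 1.83 with a standard error of 0.29 (limma adjusted p = 0.000529), and passed in 15 of 19 other settings. Chl1, a neural adhesion molecule, fell by 1.86, with 1 of 3 ES_EPZ arrays above background and only 1 of its 2 probes called.

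Mixl1 was at 8.04, 8.37 and 7.27 in ES_EPZ and at 9.66, 9.27 and 9.90 in Control, and fell by 1.72 (standard error 0.34, limma adjusted p = 0.00565). It was the only called gene of 15 primitive streak and mesendoderm factors (6.67%, against 0.0704% of all symbols called lower). The median change of that list was -0.15. Apob, the structural apolipoprotein of lipoproteins, fell by 1.54 at the called 1 of its 2 probes. This call was lost with 1 probe per gene. Rbp4 rose, so that the list of 27 visceral endoderm and carrier genes had 1 call each way. That was 3.7% each, against 0.385% of all symbols higher and 0.0704% lower. Avpr2, a vasopressin receptor, was the exception to the separation of the groups. It had 5.04, 3.85 and 4.42 in ES_EPZ, where no array was above background, and 7.18, 6.47 and 4.66 in Control, and was at least 2.78-fold lower at the called probe. This call was kept in 6 of 18 other settings, and the brighter of its 2 probes differed by 0.02. The other 14 lower genes were lower in all 9 pairs of arrays, a condition met by 14% of all genes.

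Cell type markers were read at the level of RNA, which does not count cells. By flow cytometry, the study reports a significantly larger G+H+ population at d6 in both inhibitor regimens than in its control. All 9 markers of ADE were above background on every ES_EPZ and Control array. None was called, but the mean of the list was 12.66 to 13.28 in ES_EPZ, 11.76 to 12.25 in Control and 12.97 to 13.53 in ADE_EPZ. Hhex, which marks definitive endoderm, was at 11.46, 11.49 and 11.99 in ES_EPZ and 10.01, 10.52 and 9.79 in Control, a difference of 1.54 with a standard error of 0.40 (limma adjusted p = 0.0356). Cer1, a secreted antagonist of Nodal, was higher by 2.25 with a standard error of 0.86 (limma adjusted p = 0.207). Sfrp5, a Wnt antagonist, and Lhx1, a homeobox factor, differed by 1.39 and 1.32 without passing (limma adjusted p = 0.0757 and 0.163). Gsc, Otx2 and Foxa2 differed by 0.79, 0.84 and 0.34 (limma adjusted p = 0.541, 0.63 and 0.927). These markers were higher in all 9 pairs of arrays, a condition met by 13.8% of all genes. Sox17 and Cxcr4 differed by -0.01 each.

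The mean of 4 markers of cardiac and lateral mesoderm was 6.06 to 7.88 in ES_EPZ, 8.22 to 8.43 in Control and 6.69 to 7.92 in ADE_EPZ. In ES_EPZ replicates 1, 2 and 3 it was 7.6, 7.88 and 6.06. Tbx5, a T-box factor of the heart, differed by -1.60 from Control with a standard error of 0.39 (limma adjusted p = 0.0242). Foxf1, a forkhead factor of lateral mesoderm, differed by -1.67 and Hand1 by -1.37 (limma adjusted p = 0.331 and 0.548). None of them passed the threshold. The fourth marker, the cardiac homeobox gene Nkx2-5, differed by -0.05. In the longer list of 21 such genes 8 lay above 0, and its values ran from -2.33 to 2.90. Afp, a visceral endoderm marker, differed by -1.29 (standard error 0.18, limma adjusted p = 0.000117), below the fold required, with 1 of 3 ES_EPZ arrays above background. The means of the pluripotent, visceral endoderm and trophoblast lists overlapped between ES_EPZ and Control, as did that of the neural list. The haemato-vascular list did not overlap, at 7.83 to 7.98 in ES_EPZ and 7.48 to 7.77 in Control, with 1 of its 4 markers above background on no ES_EPZ array and 2 on no Control array. Of 4 pluripotency-related values, Pou5f1 differed by 1.03, Zfp42 by 0.61, Nanog by 0.04 and Sox2 by -0.81, with limma adjusted p values between 0.0841 and 0.989. The mean of the ADE list was 12.66, 12.81 and 13.28 in ES_EPZ replicates 1, 2 and 3. Replicate 1 was thus its lowest ES_EPZ array, whereas replicate 2 was lowest for 76 of the 82 higher genes. The part of the ADE and mesoderm lists in the result was not tested.

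**Figure D4:**
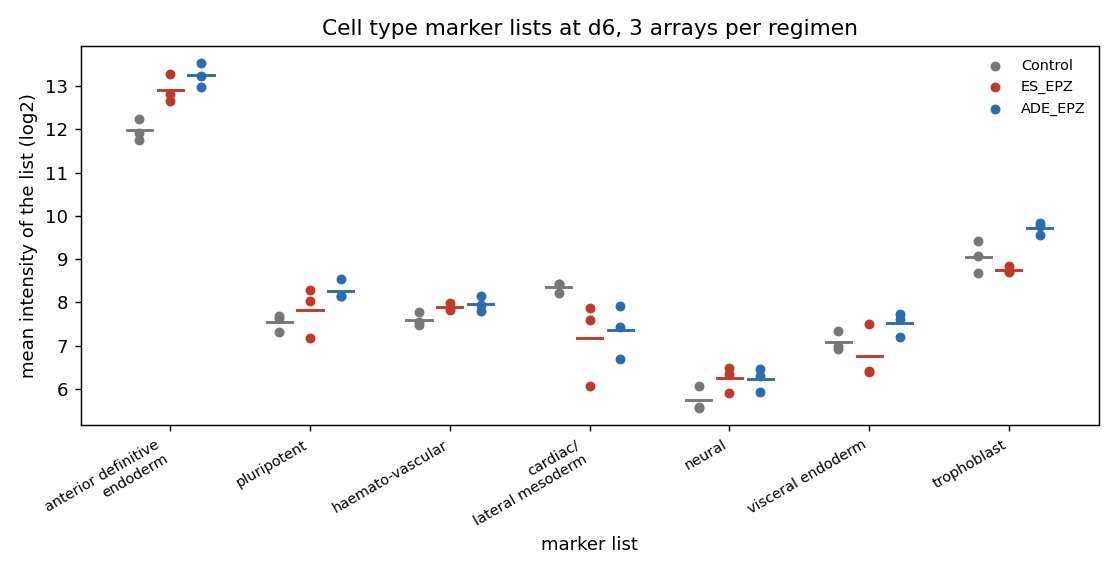
Mean intensity (log2, y axis) of 7 marker lists (x axis) on each array of Control (grey), ES_EPZ (red) and ADE_EPZ (blue). Points are arrays and bars are means of 3. The ADE list is higher and the cardiac and lateral mesoderm list lower on every ES_EPZ array than on any Control array. Of single genes, 13.8% were higher and 14% lower in all 9 pairs of an ES_EPZ and a Control array.

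The untreated series gave the levels of the same genes on other arrays, which were normalised together with these and entered the same fit, where they set the spread but not the means of ES_EPZ and Control. Of the 82 higher genes, 65 (79.3%) were also higher in sorted d6 G+H+ cells than in d5 Ghigh cells, against 2.68% of all genes, and 0 were lower, against 1.4%. All 82 had a positive difference in that comparison, as did 48.8% of all genes. Against mESCs, 51 were higher in d6 G+H+ cells (62.2%, against 5.72% of all genes) and 3 lower, against 5.22% of all genes. The median difference of the 82 genes from mESCs lay between -0.35 and 0.02 in each population up to d5 and was 2.13 in the G+H- and 2.60 in the G+H+ cells of d6. Of the 15 lower genes, 7 were lower in d6 G+H+ than in d5 Ghigh cells (46.7%, against 1.4% of all genes) and 0 were higher. These tests share 1 estimate of the spread of each probe with that of ES_EPZ, and a probe with little spread is called more readily in both.

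**Figure D5:**
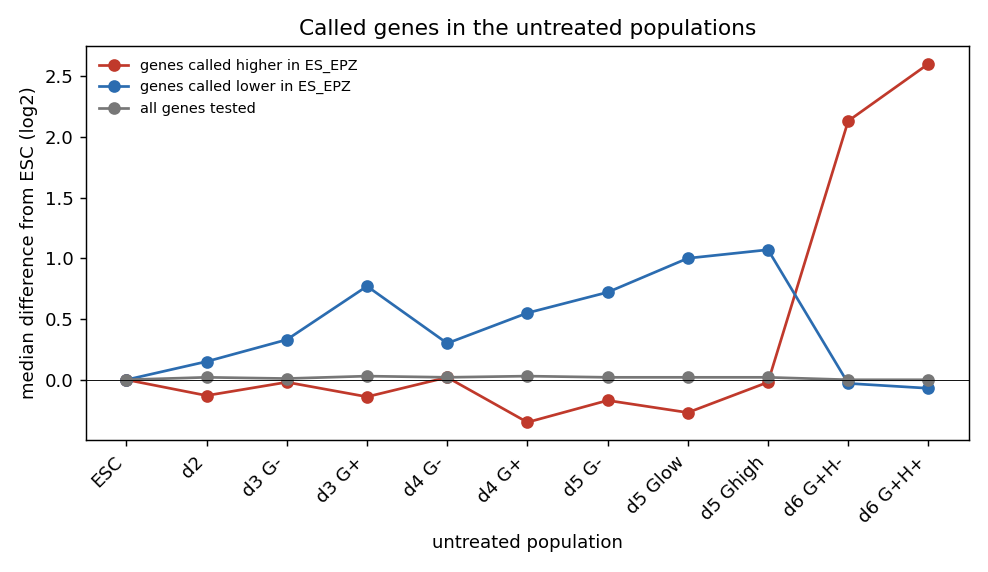
Median over genes of the difference in intensity from mESCs (log2, y axis) in each untreated population (x axis, labels as deposited), for the 82 genes called higher in ES_EPZ (red), the 15 called lower (blue) and all genes tested (grey). The red line reaches 2.13 and 2.60 in the d6 populations, and the blue line falls from 1.07 in d5 Ghigh to -0.07 in d6 G+H+ cells.

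Single genes followed this course to different degrees. Dio3 was at 5.39 ± 0.28 (SD, n = 3) in mESCs, at 5.62 in d5 Ghigh cells and at 8.67 ± 1.10 once G+H+ cells were sorted at d6, beside 9.64 ± 0.83 in ES_EPZ and 5.64 ± 0.41 in Control. Rax was at 5.33 in mESCs, 5.69 in d5 Ghigh cells and 11.82 in G+H+ cells of d6, 6.13 above d5 Ghigh (limma adjusted p = 2.73e-11). Alx1 and Tbx1 also exceeded d5 Ghigh in d6 G+H+ cells, by 4.35 and 4.26. Bok was at 10.39 in mESCs, lower in d5 Ghigh cells (8.95) and higher again in d6 G+H+ cells (11.73). Eppk1 ran a like course, at 9.68, 6.46 and 10.39. Of the 82 higher genes, 33 had a higher mean in mESCs than in Control, as did 10966 of all 22201 genes. Scel went from 8.04 in d5 Ghigh cells to 10.21 in the G+H- cells of d6 but only to 9.02 in the G+H+ cells, and its difference of 0.98 from d5 Ghigh did not pass (limma adjusted p = 0.207). Mixl1 went the other way, from 10.12 in d5 Ghigh to 6.88 in d6 G+H+ cells. The untreated and inhibitor series were on different slides, so that slide and series cannot be told apart in levels set across them.

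The same genes were read in ADE_EPZ, which shares its Control arrays with ES_EPZ. Dio3 was 4.00 above Control in ES_EPZ and 2.79 in ADE_EPZ, Bok 3.41 and 3.31, Eppk1 3.34 and 2.96, and Alx1 3.24 in both. Krt90 was 2.84 and 2.79 above Control, Rax 2.79 and 3.05, Grb10 1.71 and 1.67, and Gip 1.99 and 1.95. For Sst, Scel and Proc, 2.91, 2.75 and 2.83 above Control in ES_EPZ, the values in ADE_EPZ were 1.46, 1.47 and 1.98 and did not pass the thresholds (limma adjusted p = 0.138, 0.0428 and 0.0172). Compared directly, 0 of the 97 called genes passed the thresholds between ES_EPZ and ADE_EPZ by limma, where 0.0135% of all genes were higher and 0.117% lower. The difference between the regimens ran from -1.27 to 1.45 over the 82 higher genes with a median of 0.04, and its 95% interval reached a median of 0.69 to either side, so that differences of that size were not resolved. With slide or replicate number as a block Mixl1 alone of the 97 was called. The 97 genes were chosen on the same ES_EPZ arrays. For 4 of the 97 genes the limma adjusted p of the direct difference was at most 0.05. Insm1 was higher in ES_EPZ than in ADE_EPZ by 1.45 (95% interval 0.76 to 2.14, limma adjusted p = 0.0325) and Spon2, a secreted matrix protein, was lower, with a difference of -1.27 (interval -1.82 to -0.72, limma adjusted p = 0.0152). Chl1 was lower in ES_EPZ, with a difference of -1.38 (interval -1.91 to -0.85, limma adjusted p = 0.00461). Mixl1 was 1.63 higher in ES_EPZ than in ADE_EPZ (interval 0.94 to 2.32, limma adjusted p = 0.0125), and its difference from Control was -3.34 in ADE_EPZ.

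Over all genes, 3 were higher and 26 lower in ES_EPZ than in ADE_EPZ. Those named here, other than Nrn1, were picked out after their values were seen. Rarres1, a retinoic acid-responsive gene, differed by -3.15 between the regimens and was 1.25 above Control in ES_EPZ without passing (limma adjusted p = 0.11). Ghrl, the hormone ghrelin, differed by -2.84 and was 0.44 from Control (limma adjusted p = 0.75). Nrn1, a neural membrane protein, had intensities of 5.00, 5.24 and 5.05 in ES_EPZ, 5.22, 5.26 and 4.48 in Control and 6.70, 7.57 and 6.82 in ADE_EPZ, a difference of -1.94 (standard error 0.29, limma adjusted p = 0.00031). In ES_EPZ and Control 1 of 3 arrays was above background for this gene. The 3 genes higher in ES_EPZ included Hrk, a Bcl2 family member that promotes apoptosis, by 2.46 (limma adjusted p = 0.00317), and Ppp1r16b, a phosphatase regulatory subunit, by 1.64 (limma adjusted p = 0.00676). Their differences from Control were 0.55 and -0.23 in ES_EPZ, neither past the threshold, and -1.91 and -1.87 in ADE_EPZ. The cell cycle inhibitors Cdkn2a and Cdkn2b, established PRC2 targets, were 1.89 and 2.43 above Control in ES_EPZ, with limma adjusted p values of 0.0504 and 0.0114, and 4.11 and 3.88 above it in ADE_EPZ. The direct differences were -2.22 (limma adjusted p = 0.0325) and -1.44 (limma adjusted p = 0.292).

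No transcript of the target complex was called at d6. Ezh2 read 11.52, 11.83 and 11.20 in ES_EPZ and 12.06, 11.75 and 11.76 in Control, a difference of -0.34 with a standard error of 0.17 (limma adjusted p = 0.423). Ezh1, the other catalytic subunit, differed by -0.27, Eed by -0.22, Suz12 by -0.09 and the accessory Jarid2 by 0.05. Among other subunits the differences were -0.67 for Rbbp7 (limma adjusted p = 0.156), -1.06 for Phf19 (limma adjusted p = 0.0285) and -2.19 for Lcor (limma adjusted p = 0.289), of which the last rests on 1 Control array at 13.33 beside 5.60 and 5.95. Of 6 core and 8 accessory subunits 0 were called, nor were any of 20 subunits of PRC1 or 3 H3K27 demethylases. The drug acts on the enzyme and not on its transcript, so these values do not measure inhibition.

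Many developmental transcription factors are PRC2 targets in mESCs. Of 268 factors in the families examined, among them Hox, Pax, Irx, Zic, Nkx, Fox and Sox, Alx1 and Tbx1 were higher (0.746%, against 0.385% of all symbols) and 0 were lower. The families did not include the called homeobox genes Rax and Hesx1, which rose by 2.79 and 2.13, and Mixl1, which fell by 1.72. The median change was -0.01, as over all symbols. Of 39 Hox genes 0 were called, with a median of -0.32. By limma 0 of 34 Wnt, 20 BMP, 22 FGF and 16 Nodal and TGF-beta pathway genes were called. Bmp4, a ligand of the BMP pathway, was at 12.65, 13.15 and 10.19 in ES_EPZ and 14.38, 14.05 and 14.54 in Control, a difference of -2.33 with a standard error of 0.68 (limma adjusted p = 0.0708). Lefty2, a Nodal antagonist, was higher by 2.54 (limma adjusted p = 0.0162).

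Pluripotency and neural genes are of interest because H3K27me3 holds back other fates in these cells. Of 17 naive and 12 general pluripotency factors 0 were called. The study's own list of 23 inner cell mass genes had 1 called higher, the keratin Krt42 (4.35%, against 0.385% of all symbols), and a median of 0.40. Nr0b1, a nuclear receptor at 10.84, 9.63 and 13.14 against 8.40, 8.85 and 8.80 in Control, was 2.52 higher without passing (limma adjusted p = 0.0345). Dppa5a, which the study follows, was at 12.17, 11.07 and 12.64 in ES_EPZ and 11.85, 11.05 and 12.38 in Control, a difference of 0.20 (limma adjusted p = 0.939). The study reports its ectopic expression where it discusses the ADE_EPZ regimen, so this value is for another regimen. Of 29 neural genes 0 were called, with a median of 0.20. Tubb3, a neuronal tubulin, was higher by 2.01 (standard error 0.58, limma adjusted p = 0.0646) and Cpe, a peptide-processing enzyme, by 1.33 (limma adjusted p = 0.0792). The study names Cpe, Mapk10, Nrn1 and Zic1 for the inhibitor given during differentiation, which is not the ES_EPZ regimen. Mapk10 was 0.64 higher in ES_EPZ with no Control array above background. Zic1, a zinc finger factor, differed by 0.04 at its brightest probe. At its other probe it differed by -1.0 from Control in ES_EPZ (limma adjusted p = 0.273) and by 1.62 in ADE_EPZ, and the direct difference of -2.62 between the regimens was called (limma adjusted p = 0.00077), so that the probes disagree.

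In other lists of general processes 0 genes were called. This held for 20 cell cycle genes, 9 DNA methylation enzymes, 20 glycolysis and hypoxia genes, 34 germline genes and 15 stress genes, with medians of -0.30, -0.12, 0.00, 0.03 and 0.60. Hspa1a, a heat shock protein, was higher by 1.41 with a limma adjusted p of 0.00244, just below the fold required. Metallothioneins had a median of 0.85, and Mt1 was higher by 2.13 with a standard error of 0.79 (limma adjusted p = 0.184). Hormad1, a meiotic gene, differed by -4.10 (standard error 1.5) and was picked out after its values were seen, since 1 Control array read 17.59 and the others 5.94 and 4.82.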

How the data were processed

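Total RNA of each culture was labelled with Cy3 and hybridised to a 1-colour Agilent mouse array. The authors deposited log2 values that they had background-corrected (normexp with an offset of 10) and quantile-normalised over 42 arrays, and these were used as given, with repeated probes averaged. The deposited scanner intensity files gave the slide, the background flags and the alternative normalisations. Symbols came from a RefSeq table of GRCm38.p6. One mean per group was fitted in R 4.3.3 with limma 3.58.1, with Benjamini-Hochberg adjustment over all probes, and a gene is shown by its brightest called probe or else its brightest. On simulated data, 98 of 100 genes changed by 2 and 100 of 100 changed by 3 (log2) were called among 22201, with 0 false calls. The simulated noise was independent between values and had each probe's spread over all 42 arrays. It held no deviation shared across an array, so these rates apply to that setting only. The number of arrays limits the precision.

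The members and lists were chosen with earlier results of these data known. Named genes were the 12 largest increases and 8 largest decreases, called list members, the 2 largest uncalled members of a list, PRC2 subunits, markers and genes the study follows. Others were picked after their values were seen. The changes of some genes are not reported here. Same-numbered Control and ES_EPZ arrays shared no slide and their deviations correlated at 0.204, -0.052 and 0.018, so numbers were not taken as pairs. For same-numbered Control and ADE_EPZ arrays, also on different slides, the values were 0.203, 0.088 and 0.153. Control and ES_EPZ arrays of the same slide correlated at -0.051, 0.121 and -0.168, and the within-slide differences set arrays of unlike number side by side. Same-numbered ADE_EPZ and ES_EPZ arrays shared a slide and correlated at 0.290, 0.236 and 0.390. Alternatives changed the normalisation, filter, arrays fitted, blocks, thresholds and replicates.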

Additional observations from a re-analysis of the deposited data

Results flagged for a closer look

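Genes that differed between the regimens by the direct limma contrast were Rarres1 (-3.15), Ghrl (-2.84) and Nrn1 (-1.94), lower in ES_EPZ than in ADE_EPZ, and Hrk (2.46) and Ppp1r16b (1.64), which were higher, all as log2 differences.

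Probes without a RefSeq accession lay outside the gene counts. Of these, 24 were called higher and 4 lower in ES_EPZ than in Control by the same thresholds.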

How the results depend on the processing

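For ES_EPZ against Control, where 82 genes were higher and 15 lower, the counts were 45 and 4 with scaling to the 75th percentile, 55 and 7 with quantile normalisation over 9 arrays, 16 and 2 in a fit to 9 arrays, 0 and 0 in a fit to 6 arrays, 102 and 28 with slide as a fixed block, 133 and 32 with slide as a random block, 50 and 10 with a fixed slide block in 9 arrays, 153 and 34 with the adjusted p relaxed to 0.05 and 132 and 36 with the log2 difference relaxed to 1. Leaving out 1 array gave 12 to 182 higher and 2 to 40 lower.

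For ES_EPZ against ADE_EPZ, with 3 higher and 26 lower, they were 1 and 14 with an offset of 50, 1 and 17 without background correction, 1 and 23 with the 75th percentile, 6 and 22 with probes above background only, 1 and 27 in 9 arrays, 7 and 33 with a fixed and 7 and 34 with a random slide block, 0 and 18 with a fixed slide block in 9 arrays, 6 and 26 with 1 probe per gene, 9 and 39 with the p and 17 and 61 with the log2 difference so relaxed, and 0 to 14 and 21 to 37 without 1 array.

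With the replicate number as a block, 103 genes were higher and 26 lower than in Control, and 6 higher and 37 lower than in ADE_EPZ. Requiring an observed over expected CpG of at least 0.75 lowered the share of CpG-rich promoters among the higher genes to 17.9% and among the lower genes to 27.3%, and among all genes to 34.4%. Of 49 called genes examined singly, 48 kept their direction in every alternative run and 0 passed in all. Avpr2 was at 0.02 with 1 probe per gene. Of 63 genes not called, 15 passed in some alternative and 17 changed sign. With the newer annotation, chosen after seeing the data, 83 were higher and 15 lower. The causes were not tested.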
